A study of Homo sapiens with 27 samples.

Results

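HIF1A and 8 genes of the hypoxia response, VEGFA, ADM, SLC2A1, PDK1, NDRG1, EGLN1, P4HA1 and KDM3A, were followed in 501mel cells, an established human melanoma line with high MITF. The 9 genes were taken by symbol from a table of 13523 genes, with no threshold on their values. They were chosen with earlier results of these data known. RNA was read from its 3′ end (QuantSeq Forward), and 25 libraries in 9 groups were used. WT cells were left untreated (3 libraries), kept for 12 h in HBSS (2 libraries), or given the mTOR inhibitor Torin at 250 nM for 12 h (2 libraries). HBSS is a salt solution that held glucose, per the authors, but no amino acids or serum. TFE3 KO, TFEB KO and DKO cells, which lack TFE3, TFEB or both after CRISPR-Cas9 editing, were compared as 12 h controls and after 12 h of Torin (3 libraries each). The labels give no time for untreated WT. Any effect of control time therefore cannot be told apart from genotype, or from HBSS or Torin in WT cells. The same holds where the Torin response of a knockout is set against that of WT. No group is labelled with an edit of MITF or as kept in low oxygen, and all cells were maintained in DMEM with 10% serum per the labels. The paper's methods instead name RPMI for its human melanoma lines other than HBL cells, so the base medium is uncertain. Each knockout was 1 clone, so that clone and genotype cannot be told apart. The columns labelled HBSS replicate 3 and WT Torin replicate 1 held identical values and were left out of both groups, which leaves 2 libraries in each. Nothing in the labels says that replicates came from separate cultures, so the p-values measure the spread between these libraries, which may be technical.

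HIF-1 is a pair of proteins, HIF1A and ARNT. In well-oxygenated cells the prolyl hydroxylase EGLN1 marks HIF1A protein for destruction through VHL, and in low oxygen the protein accumulates and binds short DNA elements with the core ACGTG or its variant GCGTG. Its targets raise glucose uptake and glycolysis, send out vascular signals and modify collagen and chromatin. Because HIF1A is set largely at the level of its protein, its mRNA and the mRNAs of its targets need not move together. TFE3, TFEB and MITF are related factors that bind E-boxes such as CACGTG, and TFE3 and TFEB move to the nucleus when mTORC1 is inhibited.

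The short DNA elements are shown here as they stand next to the members' start sites. RefSeq promoter windows (GRCh38.p14) of 250 bases before the start were searched on both strands for the HIF core ACGTG, its variant GCGTG and the E-box CACGTG, the last of which contains the HIF core. Windows of 7 members were searched, and those of VEGFA and NDRG1 were not analysed here. ACGTG was found in 2 of the 7 and in 23.5% of 9938 promoters, GCGTG in 3 of the 7 and in 45.7%, and CACGTG in 0 of the 7 and in 9.08%, so that the members' counts are near those of all promoters. The 5 matches are shown with up to 10 bases on either side and the core in capitals, on the strand of the gene. The core in P4HA1 is read on the other strand, so that ACGTG appears as its reverse complement.
EGLN1: gccgtggtgtACGTGcagagcgc
P4HA1: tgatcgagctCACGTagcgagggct
HIF1A: gctgagagcgGCGTGggctggggtg
ADM: gcaggagcgcGCGTGgctgaggaaa
KDM3A: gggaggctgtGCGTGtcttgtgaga
They lie at chr1:231422288-231422310 (EGLN1, minus strand), chr10:73096938-73096962 (P4HA1, minus strand), chr14:61695299-61695323 (HIF1A, plus strand), chr11:10304962-10304986 (ADM, plus strand) and chr2:86441335-86441359 (KDM3A, plus strand). The core began 13 bases before the RefSeq start in EGLN1, 26 in KDM3A, 86 in P4HA1, 101 in ADM and 204 in HIF1A. For KDM3A and P4HA1 the start in GENCODE v44 (hg38) differs. There their matches lie inside the genes (86440647 to 86492716 and 73007217 to 73096974). A match is a description of the letters and not a bound site, and the windows of SLC2A1 and PDK1 held none of the motifs; sequence farther from the start was not searched.

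Depth ran from 4147050 to 6526392 reads per library, and 3 reads corresponded to 0.460 to 0.711 normalised read counts. In GENCODE v44 (hg38) the members are protein-coding genes, HIF1A on chromosome 14 (61695513 to 61748259), VEGFA on 6 (43770184 to 43786487), ADM on 11 (10305073 to 10307397), P4HA1 on 10 (73007217 to 73096974), SLC2A1 (42925353 to 42958893) and EGLN1 (231363751 to 231422287) on 1, and PDK1 (172555373 to 172608669) and KDM3A (86440647 to 86492716) on 2. Each member was read at least 12 times in every library and at most 1016 times. All 7 melanocytic markers (MITF, SOX10, PMEL, MLANA, TYR, TYRP1 and DCT) were in the table, with a summed value of 5123 to 14453 that was highest in HBSS. Of 12 markers of leukocytes, endothelium, fibroblasts and epithelium, 9 were absent or at the floor of 3 reads, PTPRC, PECAM1, DCN and EPCAM among them, and the other 3 summed to 30.9 to 77.5. TFE3 had 23.8 to 24.3 in WT, 5.06 to 7.59 in TFE3 KO and 5.93 to 6.86 in DKO. TFEB had 2.34 to 3.96 in WT, 0.750 to 1.66 in TFEB KO and 0.156 to 1.05 in DKO, but it was also at 0.177 to 1.56 in TFE3 KO, near the floor of 3 reads, so that its level does not separate these genotypes. A 3′ tag outside the edited exon would not report the edit itself.

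**Figure D1:**
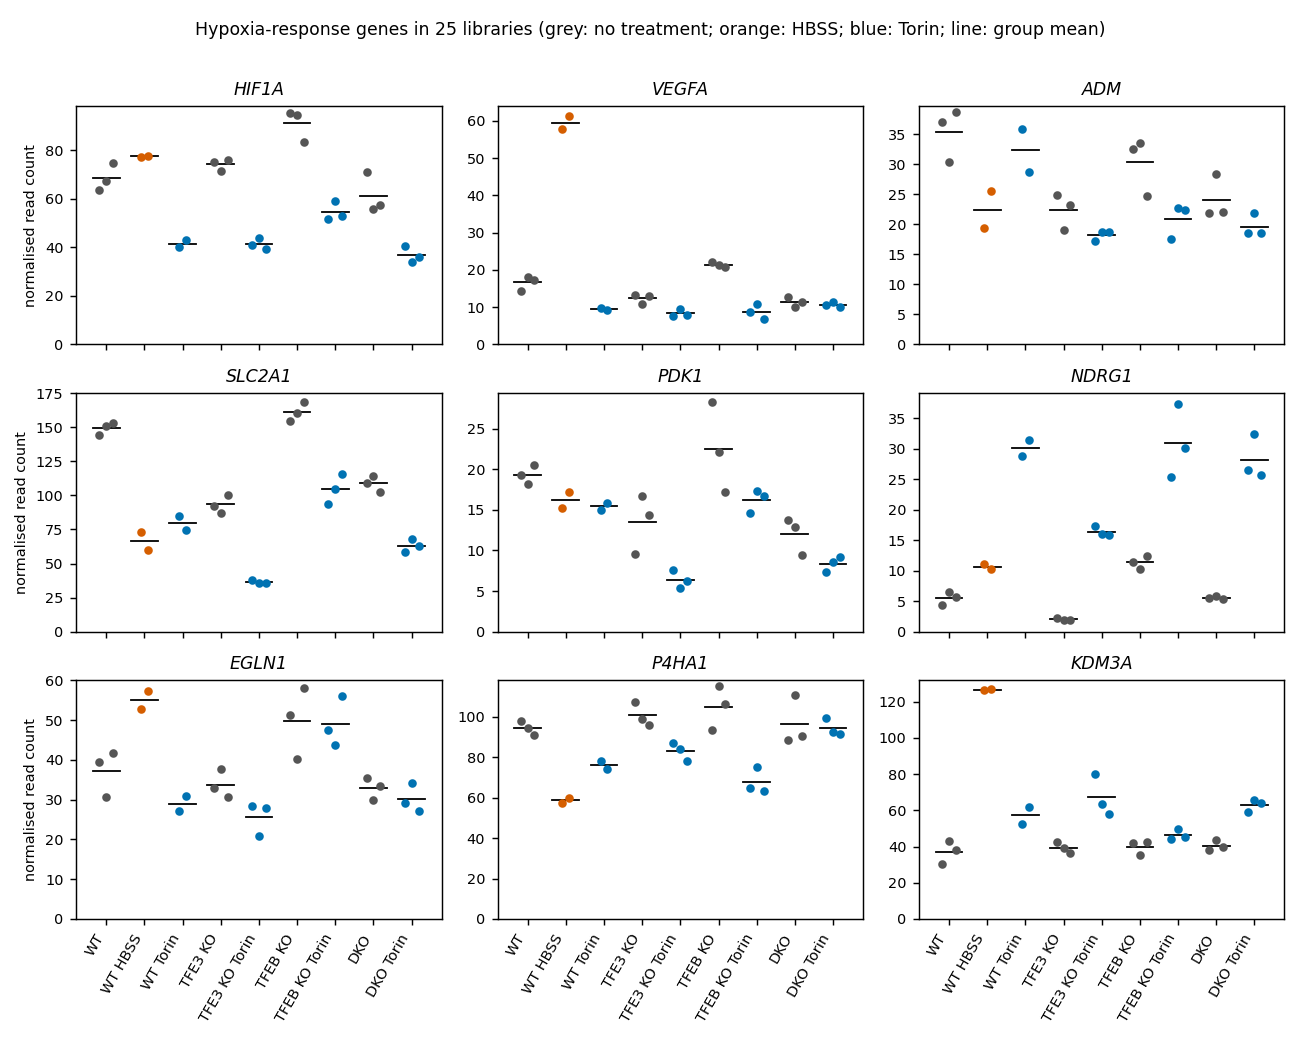
Normalised read count of each member (vertical axis, from 0) in each of the 25 libraries, by group (horizontal axis); points are libraries and lines are group means. The HBSS libraries of VEGFA (57.8 and 61.3) and KDM3A (126 and 127) stand above all others, NDRG1 is higher in every Torin group than in its control, and HIF1A and SLC2A1 are lower.

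HIF1A was lowest under Torin and highest in TFEB KO. Its group means rose from 36.7 (DKO Torin) through 41.4 (TFE3 KO Torin), 41.5 (WT Torin), 54.6 (TFEB KO Torin), 61.3 (DKO), 68.5 (WT), 74.3 (TFE3 KO) and 77.4 (WT HBSS) to 91.0 (TFEB KO). The ranges of neighbours did not overlap at WT Torin and TFEB KO Torin, at TFE3 KO and WT HBSS, and at WT HBSS and TFEB KO, and overlapped at every other step. The genes whose means over the 9 groups were most like those of HIF1A, of 8441 compared, were TMEM189 (r = 0.986), POM121 (0.983) and FBXO33 (0.979). For VEGFA they were PDHX (0.984), PHGDH (0.983) and ASNS (0.978), of which the latter pair make serine and asparagine. VEGFA means were 59.5 in WT HBSS and 8.37 to 21.4 in the other groups, so the HBSS group weighs heavily in these r. Among the members, SLC2A1 and PDK1 were the most alike over the 25 libraries (r = 0.821) and SLC2A1 and KDM3A the most opposed (r = -0.665); these are descriptions over libraries that share groups.

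In HBSS 7 of the 9 members differed from untreated WT, but in both directions. VEGFA and KDM3A rose more than 3-fold and NDRG1 and EGLN1 by less, SLC2A1, P4HA1 and ADM fell, and neither HIF1A nor PDK1 passed the test. In each comparison the test was limma on log2(value + 1), with p-values adjusted over 13052 genes and 0.05 as the threshold. Fold changes on that scale understate the change of low genes, and the counts at 2-fold use that scale. In these bulk libraries, fewer cells with a transcript and less of it per cell cannot be told apart. The 4 members that rose compare with 23.6% of all genes tested, the 3 that fell with 24.7%, and the 3 that moved at least 2-fold with 13.1%.

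VEGFA, the main growth factor for blood vessels, had 14.3, 18.2 and 17.4 in the WT libraries and 57.8 and 61.3 in HBSS. The groups were far apart, with a log2 fold change of 1.79 ± 0.18 (SE; adjusted p = 1.95e-11) and a ratio of means of 3.58. KDM3A, a demethylase of histone H3 lysine 9, had 30.4, 43.0 and 38.2 in WT and 126 and 127 in HBSS, a log2 fold change of 1.75 ± 0.13 (adjusted p = 8.14e-16). For KDM3A the HBSS libraries differed by less than any pair of WT libraries.
EGLN1, the oxygen-sensing hydroxylase that acts on HIF1A, had 39.6, 30.7 and 41.8 in WT and 52.7 and 57.3 in HBSS (0.56 ± 0.15, adjusted p = 0.00211). NDRG1, a stress-induced gene that is a substrate of the mTORC2-dependent kinase SGK1, had 4.44, 6.53 and 5.66 against 11.0 and 10.3 (0.84 ± 0.19, adjusted p = 0.000284). Neither pair of groups overlapped. HIF1A itself had 63.6, 67.3 and 74.7 in WT and 77.3 and 77.4 in HBSS, and the difference of 0.18 ± 0.11 did not pass (adjusted p = 0.212).
SLC2A1, the glucose transporter GLUT1, had 145, 151 and 153 in WT and 73.4 and 60.1 in HBSS, a fall of more than 2-fold (log2 fold change -1.16 ± 0.10, adjusted p = 2.67e-13). P4HA1, the catalytic subunit of collagen prolyl hydroxylase, had 97.8, 94.6 and 91.1 against 57.5 and 60.1 (-0.68 ± 0.10, adjusted p = 4.73e-07). ADM, the vasodilator peptide adrenomedullin, had 37.0, 30.3 and 38.6 against 19.3 and 25.5 (-0.64 ± 0.17, adjusted p = 0.00137). All 3 genes were lower in both HBSS libraries than in any WT library, although ADM did not pass without HBSS replicate 1 (-0.44, adjusted p = 0.0870). PDK1, the mitochondrial kinase that inhibits pyruvate dehydrogenase, had 19.2, 18.2 and 20.5 in WT and 15.2 and 17.2 in HBSS (-0.24 ± 0.21, adjusted p = 0.346).

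Of 67 other genes on 6 lists of hypoxia genes, 55 were tested, and 14 were higher and 13 lower in HBSS (median log2 fold change 0.06, against -0.03 over all genes). These shares of 25.5% and 23.6% are near the 23.6% and 24.7% of all genes. The list of chromatin and transcription targets had 5 of 10 higher and 0 lower. They included RORA (1.48 ± 0.14), MXI1 (1.37 ± 0.09), the H3K4 demethylase KDM5B (1.32 ± 0.13) and the repressor BHLHE40 (1.26 ± 0.24). WSB1 (1.54 ± 0.11) and the mTORC1 inhibitor DDIT4 (1.20 ± 0.13) were also higher. HMOX1, which breaks down heme (-1.64 ± 0.22), and the collagen hydroxylase P4HA2 (-1.10 ± 0.21) were lower. Of the glycolytic list 1 of 19 was higher and 5 lower. Of the targets of the integrated stress response, which reports amino acid shortage through ATF4, 15 of 16 were higher in HBSS and 0 lower (median 1.78). Their summed value was 4602 to 4636 in HBSS and 1632 to 1665 in WT. The melanocytic markers rose too, 7 of 7 in HBSS, with sums of 14300 to 14453 against 6196 to 6392 in WT. MITF rose by 0.90 ± 0.07 and TFEB by 2.85 ± 0.36 on the log2 scale, TFEB from 2.34 to 3.96 up to 28.0 to 30.4, while TFE3 did not pass (0.02 ± 0.19). The part of these genes in the changes of the members was not tested.

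**Figure D2:**
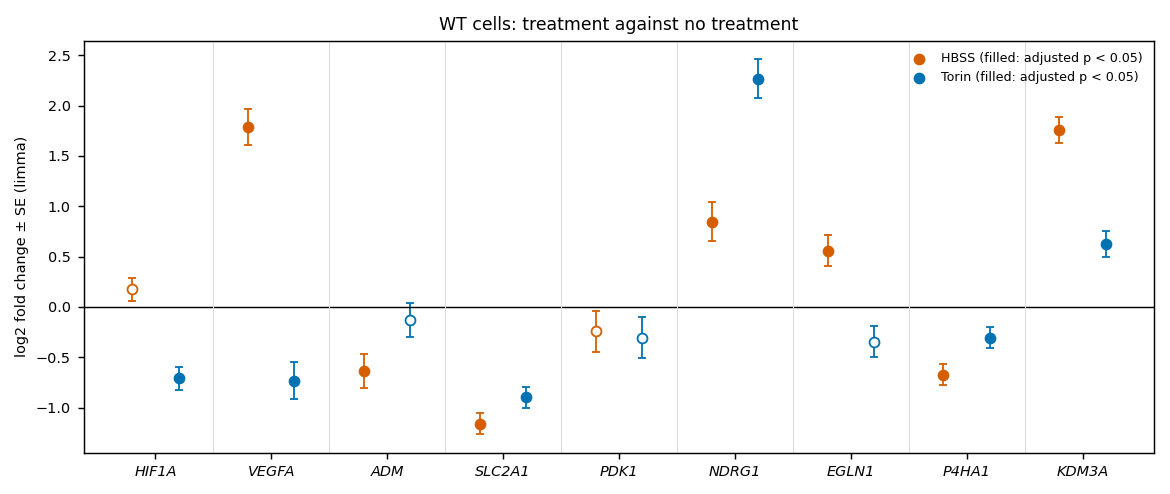
Log2 fold change against untreated WT cells (vertical axis, ± SE from limma) of each member (horizontal axis) in HBSS (orange) and with Torin (blue); filled points passed at an adjusted p of 0.05. VEGFA is at 1.79 in HBSS and -0.73 with Torin, and NDRG1 at 0.84 and 2.26. The 2 contrasts share the WT libraries.

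Torin moved 6 of the 9 members in WT cells, again in both directions. NDRG1 rose more than 5-fold by the ratio of means (5.44) and KDM3A less, while SLC2A1, VEGFA, HIF1A and P4HA1 fell. The 2 that rose compare with 20.5% of all genes tested, the 4 that fell with 23.4%, and the 1 that moved at least 2-fold with 9.66%. In TFE3 KO 2 rose (25.4% of all genes) and 6 fell (26.0%), with 2 past 2-fold (11.7%). In TFEB KO 1 rose (17.4%) and 5 fell (21.0%), with 2 past 2-fold (5.02%), and in DKO 2 rose (25.4%) and 3 fell (26.2%), with 1 past 2-fold (11.1%).

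HIF1A fell in all 4 genotypes. In WT it went from 63.6, 67.3 and 74.7 to 40.1 and 42.9, a log2 fold change of -0.71 ± 0.11 (adjusted p = 1.64e-06). In TFE3 KO it went from 75.2, 71.5 and 76.1 to 41.1, 43.9 and 39.3 (-0.83 ± 0.10, adjusted p = 2.64e-09). The falls were 0.73 ± 0.10 in TFEB KO (from 83.2 to 95.2 down to 51.7 to 59.2) and 0.72 ± 0.10 in DKO (from 55.6 to 70.9 down to 33.8 to 40.6), with adjusted p-values of 1.37e-07 and 8.20e-08. No Torin library reached the control libraries of its own genotype. EGLN1, in contrast, passed only in TFE3 KO (-0.39 ± 0.14, adjusted p = 0.0158), where it went from 30.7 to 37.7 down to 20.9 to 28.4. That call was lost without TFE3 KO replicate 2 (adjusted p = 0.0976) or TFE3 KO Torin replicate 2 (0.162). In WT EGLN1 was at -0.34 ± 0.15 (adjusted p = 0.0624) and passed without WT replicate 2 (-0.48, adjusted p = 0.0160).

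Of the glucose genes, SLC2A1 fell in all 4 genotypes and PDK1 in 2. SLC2A1 went from 145, 151 and 153 to 84.8 and 74.9 in WT (-0.90 ± 0.10, adjusted p = 6.57e-10) and from 92.5, 87.4 and 100 to 37.9, 36.1 and 36.0 in TFE3 KO (-1.32 ± 0.09, adjusted p = 7.01e-17). It fell by 0.62 in TFEB KO, where Torin libraries kept 93.3, 105 and 116, and by 0.78 in DKO, where they had 58.3, 68.1 and 63.2. The 3 TFE3 KO Torin libraries were the lowest of all 25. PDK1 fell in TFE3 KO from 9.54, 16.7 and 14.3 to 7.63, 5.34 and 6.24 (-0.95 ± 0.18, adjusted p = 2.42e-05), and in DKO from 9.39 to 13.7 down to 7.38 to 9.25 (-0.46 ± 0.18, adjusted p = 0.0341). The DKO call was lost without DKO replicate 1 or 2 or DKO Torin replicate 1 or 2 (adjusted p = 0.0586 to 0.146), and with edgeR (0.0501) and DESeq2 (0.0565). In WT PDK1 had 15.0 and 15.9 with Torin and did not pass (-0.30 ± 0.21, adjusted p = 0.237). In TFEB KO it was at -0.43 ± 0.18 (adjusted p = 0.0611) and passed without TFEB KO replicate 3 (0.0167).

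VEGFA fell with Torin in 3 of the 4 genotypes. In TFEB KO it went from 22.1, 21.4 and 20.9 to 8.62, 10.8 and 6.92 (-1.22 ± 0.16, adjusted p = 4.95e-08), in WT from 14.3, 18.2 and 17.4 to 9.84 and 9.24 (-0.73 ± 0.18, adjusted p = 0.000973), and in TFE3 KO from 13.2, 10.9 and 12.9 to 7.63, 9.57 and 7.91 (-0.51 ± 0.16, adjusted p = 0.00770). In DKO it had 12.8, 9.94 and 11.3 without and 10.5, 11.4 and 10.0 with Torin, and these overlapped (-0.08 ± 0.16, adjusted p = 0.708). The 4 Torin means lay between 8.37 and 10.6. In WT the falls of VEGFA and HIF1A change with the left-out column: counted as a WT Torin library, it gave 0.05 for VEGFA (adjusted p = 0.932) and -0.35 for HIF1A (adjusted p = 0.114). That column had 12917 genes with a read. The HBSS libraries used had 12895 and 12901, and the WT Torin libraries used 13188 and 13181. Which treatment the column belongs to was not tested. ADM passed only in TFEB KO, from 32.6, 33.5 and 24.7 to 17.6, 22.8 and 22.4 (-0.51 ± 0.15, adjusted p = 0.00560), a call lost without TFEB KO Torin replicate 1 (0.0597). P4HA1 fell in WT (-0.31 ± 0.10, adjusted p = 0.0150), TFE3 KO (-0.27 ± 0.09, 0.0132) and TFEB KO (-0.62 ± 0.09, 5.60e-07), and was at -0.03 ± 0.09 in DKO. Its WT call was lost without WT Torin replicate 3 (0.114) and with edgeR (0.0579), and its TFE3 KO call without TFE3 KO replicate 1 (0.0754) or TFE3 KO Torin replicate 3 (0.0666).

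NDRG1 and KDM3A were the members that rose. NDRG1, on chromosome 8 at 133237175 to 133302022 (hg38), had 4.44, 6.53 and 5.66 in WT and 28.8 and 31.5 with Torin, a log2 fold change of 2.26 ± 0.19 (adjusted p = 1.49e-13). In TFE3 KO it went from 2.30, 1.99 and 1.87, or 12 to 13 reads, to 17.4, 16.0 and 15.8 (2.51 ± 0.17, adjusted p = 4.79e-17), and in DKO from 5.45, 5.93 and 5.32 to 26.5, 32.4 and 25.8 (2.15 ± 0.17, adjusted p = 1.12e-14). TFEB KO started higher, at 11.4, 10.3 and 12.4, and reached 25.3, 37.4 and 30.1 (1.35 ± 0.17, adjusted p = 1.41e-08). KDM3A rose in WT (0.62 ± 0.13), TFE3 KO (0.75 ± 0.12) and DKO (0.63 ± 0.12), with adjusted p-values from 4.50e-07 to 0.000113. In TFEB KO it had 41.9, 35.6 and 42.3 without and 44.3, 49.9 and 45.2 with Torin, which did not overlap but did not pass (0.22 ± 0.12, adjusted p = 0.140).

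Whether the Torin response itself differed from that of WT was tested as an interaction, and 0 of 9 members passed in any of the 3 knockouts. The share of all genes that passed was 0.490% upwards and 0.575% downwards in TFE3 KO, 0.812% and 0.345% in TFEB KO, and 0.314% and 0.192% in DKO. At an unadjusted p under 0.05 there were 2, 4 and 1 members. NDRG1 in TFEB KO came nearest, with a response lower by 0.91 ± 0.26 on the log2 scale (adjusted p = 0.0675). It passed with edgeR (adjusted p = 0.0420) and DESeq2 (0.0375), and with limma without WT replicate 2 (0.0454) or TFEB KO Torin replicate 2 (0.0429); no other member passed with edgeR or DESeq2. VEGFA in DKO stood at 0.66 ± 0.25 (adjusted p = 0.295) and SLC2A1 in TFE3 KO at -0.42 ± 0.14 (adjusted p = 0.160), so that neither response is shown to differ from that of WT.

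**Figure D3:**
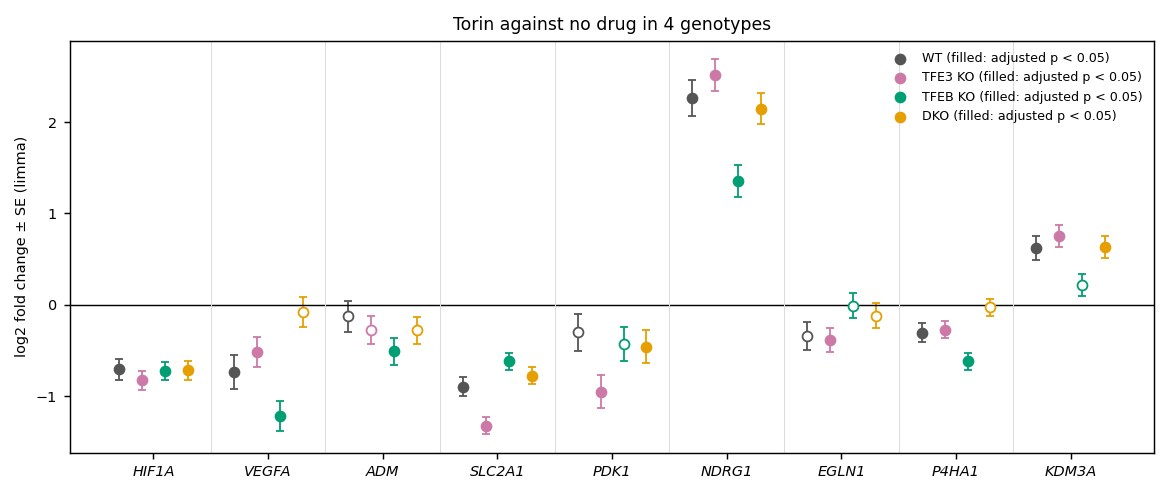
Log2 fold change with Torin against the control of the same genotype (vertical axis, ± SE from limma) for each member (horizontal axis) in DKO, TFEB KO, TFE3 KO and WT cells; filled points passed at an adjusted p of 0.05. HIF1A lies between -0.83 and -0.71 in all 4, and NDRG1 between 1.35 and 2.51.

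Over the 6 hypoxia lists together more of the other genes fell than rose with Torin, but the lists differed. With Torin 9 of the 55 other genes rose and 22 fell in WT (median -0.16), 9 and 28 in TFE3 KO, 7 and 30 in TFEB KO and 11 and 20 in DKO. The falls were 40.0%, 50.9%, 54.5% and 36.4% of the 55, against 23.4%, 26.0%, 21.0% and 26.2% of all genes, and the rises 16.4%, 16.4%, 12.7% and 20.0%, against 20.5%, 25.4%, 17.4% and 25.4%. The glycolytic list held many of the falls, with 11 of 19 lower in WT, 14 in TFE3 KO, 16 in TFEB KO and 12 in DKO, and at most 1 higher. In WT its named members were ENO2 (-1.45 ± 0.11), lactate dehydrogenase LDHA (-1.36 ± 0.08) and hexokinase HK2 (-1.24 ± 0.13), and ENO2 and HK2 fell more than 2-fold in every genotype. The transferrin receptor TFRC fell by 1.24 in WT, 1.99 in TFE3 KO, 1.13 in TFEB KO and 2.26 in DKO. The named genes that rose at least 2-fold in WT were KDM5B (1.40 ± 0.13), MXI1 (1.14 ± 0.09), WSB1 (1.30 ± 0.11) and CITED2 (1.51 ± 0.30), which competes with HIF1A for the coactivators EP300 and CREBBP. The other HIF subunits and regulators did not share the falls, with 2 of 9 higher and 0 lower in WT, 4 and 0 in TFE3 KO, 1 and 1 in TFEB KO and 2 and 0 in DKO. The chromatin and transcription targets went both ways, with 3 of 10 higher and 1 lower in WT, 3 and 4 in TFE3 KO, 3 and 2 in TFEB KO and 4 and 1 in DKO. JMJD6 of this list was at -1.12 ± 0.16 in WT, -1.11 ± 0.15 in TFE3 KO, -1.07 ± 0.15 in TFEB KO and -1.08 ± 0.15 in DKO. Of the integrated stress response targets 2 of 16 rose and 10 fell in WT (median -0.43), and of the melanocytic markers 4 of 7 rose and 1 fell. Their part in these results was not tested.

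Set directly against each other in WT, HBSS and Torin differed for 7 of the 9 members. VEGFA (2.52 ± 0.20), KDM3A (1.13 ± 0.14), EGLN1 (0.90 ± 0.17) and HIF1A (0.88 ± 0.13) were higher in HBSS, against 26.1% of all genes. NDRG1 (-1.42 ± 0.21), ADM (-0.51 ± 0.18) and P4HA1 (-0.37 ± 0.11) were lower, against 23.1%. HIF1A had 77.3 and 77.4 in HBSS and 40.1 and 42.9 with Torin, and EGLN1 52.7 and 57.3 against 27.2 and 30.8, so that both were separated by treatment. SLC2A1 stood at -0.26 ± 0.11 (adjusted p = 0.0520), with 73.4 and 60.1 in HBSS and 84.8 and 74.9 with Torin. With 2 libraries a side these calls lean on each one: ADM and P4HA1 were lost without HBSS replicate 1 (adjusted p = 0.259 and 0.0532) or Torin replicate 2 (0.208 and 0.0537), and SLC2A1 passed without HBSS replicate 1 (0.0155) or Torin replicate 3 (0.0397). With the left-out column counted as WT Torin, 4 members passed, and EGLN1 (adjusted p = 0.0690), ADM (0.229) and P4HA1 (0.0764) did not. Counted as HBSS instead, 8 members passed. All 16 integrated stress response targets were higher in HBSS than with Torin (median 1.79).

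Without treatment, the TFE3 KO clone and the TFEB KO clone had different levels of these genes. In TFE3 KO 0 members were higher than in WT (3.57% of all genes) and 3 were lower (5.84%), 1 of them at least 2-fold (1.52%). In TFEB KO 3 were higher (7.46%) and 0 lower (7.18%), with 0 past 2-fold on the log2(value + 1) scale (1.67%), although the ratio of means of NDRG1 was 2.05. In DKO 0 were higher (5.64%) and 4 lower (7.49%), with 0 past 2-fold (1.82%). The 3 contrasts share the WT libraries. MITF mRNA was lower in DKO (-0.46 ± 0.06, adjusted p = 1.79e-07) and did not pass in TFE3 KO (-0.16 ± 0.06) or TFEB KO (-0.09 ± 0.06). Of the 7 melanocytic markers, MITF among them, 4 were lower and 1 higher in DKO, 0 and 0 in TFE3 KO, and 1 and 1 in TFEB KO. The part of MITF in the members' levels was not tested.

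NDRG1 was lower than WT in TFE3 KO and higher in TFEB KO. It had 4.44, 6.53 and 5.66 in WT, 2.30, 1.99 and 1.87 in TFE3 KO (-1.09 ± 0.17, adjusted p = 7.35e-06), 11.4, 10.3 and 12.4 in TFEB KO (0.93 ± 0.17, adjusted p = 0.000144) and 5.45, 5.93 and 5.32 in DKO (0.02 ± 0.17, adjusted p = 0.971). The TFE3 KO and TFEB KO libraries thus lay on either side of WT, and the DKO libraries among those of WT. SLC2A1 had 92.5, 87.4 and 100 in TFE3 KO (-0.68 ± 0.09, adjusted p = 2.90e-07) and 109, 114 and 103 in DKO (-0.46 ± 0.09, adjusted p = 0.000296), all below the 145 to 153 of WT. In TFEB KO, at 154, 160 and 168, it did not pass (0.10 ± 0.09).
ADM was lower in TFE3 KO, at 24.9, 19.0 and 23.2 (-0.64 ± 0.15, adjusted p = 0.00271), and in DKO, at 21.8, 28.4 and 22.1 (-0.54 ± 0.15, adjusted p = 0.0104). HIF1A was higher in TFEB KO, at 95.2, 94.5 and 83.2 (0.40 ± 0.10, adjusted p = 0.00496), with no overlap with WT, and did not pass in TFE3 KO (0.12 ± 0.10) or DKO (-0.16 ± 0.10). EGLN1 was higher in TFEB KO as well, at 51.2, 40.3 and 58.2 (0.40 ± 0.14, adjusted p = 0.0368), but its lowest library fell within the WT range.
In DKO PDK1 had 13.7, 12.9 and 9.39 (-0.66 ± 0.18, adjusted p = 0.0105) and VEGFA 12.8, 9.94 and 11.3 (-0.52 ± 0.16, adjusted p = 0.0272). Both were below every WT library. KDM3A and P4HA1 passed in none of the knockouts, with log2 fold changes from 0.03 to 0.15.
Several of these calls turned on 1 library. EGLN1 in TFEB KO was lost without WT replicate 2, TFEB KO replicate 1 or TFEB KO replicate 3 (adjusted p = 0.111 to 0.245), and VEGFA in DKO without replicate 2 or 3 of WT or of DKO (0.0617 to 0.139). ADM in DKO was lost without WT replicate 3 (0.0696) or DKO replicate 1 (0.0605) and PDK1 in DKO without DKO replicate 3 (0.0968), so that 2 of the 4 DKO calls were left without WT replicate 3 or DKO replicate 3, while PDK1 in TFE3 KO (-0.51 ± 0.18, adjusted p = 0.0680) passed without TFE3 KO replicate 2 (0.0338).

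**Figure D4:**
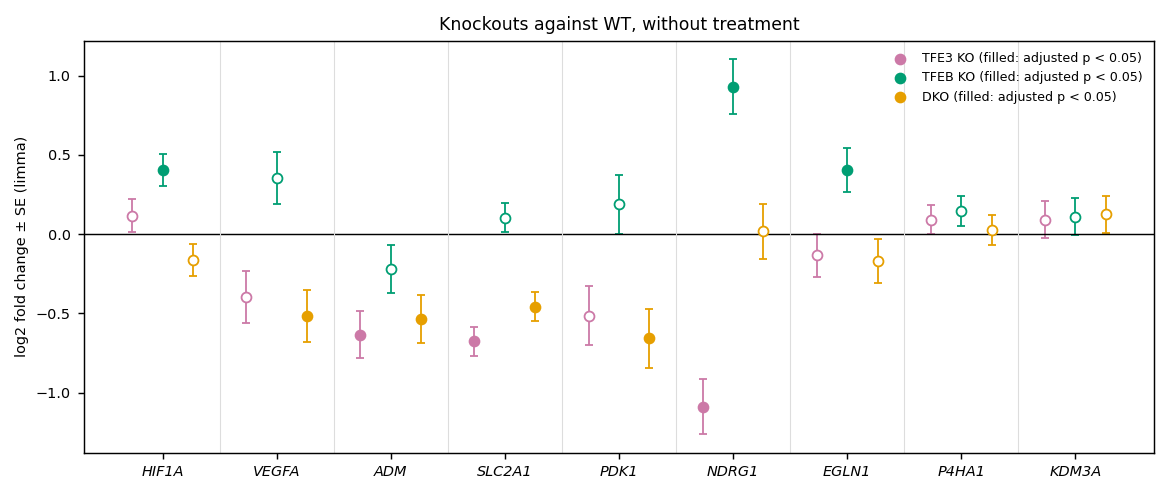
Log2 fold change against WT without treatment (vertical axis, ± SE from limma) of each member (horizontal axis) in TFE3 KO, TFEB KO and DKO cells; filled points passed at an adjusted p of 0.05. NDRG1 is at -1.09 in TFE3 KO, 0.93 in TFEB KO and 0.02 in DKO, and KDM3A and P4HA1 lie near 0 in all 3.

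TFE3 KO and TFEB KO were also compared directly. In TFE3 KO 7 of the 9 members were lower than in TFEB KO, against 15.6% of all genes, and 0 were higher, against 14.3%. Of the 7, 1 differed at least 2-fold, against 4.05%. The members and the hypoxia lists were chosen with earlier results of these data known. Shares beside those of all genes are therefore descriptions, not a test of independently picked genes. NDRG1 was lower by -2.02 ± 0.17 on the log2 scale (adjusted p = 4.40e-13), a ratio of 5.54 between TFEB KO and TFE3 KO. SLC2A1 (-0.78 ± 0.09), VEGFA (-0.75 ± 0.16), PDK1 (-0.70 ± 0.18), EGLN1 (-0.54 ± 0.14), ADM (-0.42 ± 0.15) and HIF1A (-0.29 ± 0.10) followed. KDM3A (-0.02 ± 0.12) and P4HA1 (-0.05 ± 0.09) did not pass. The HIF1A call was the least firm, since it was lost without any 1 of 5 libraries, TFEB KO replicates 1 and 2 and TFE3 KO replicates 1, 2 and 3 (adjusted p = 0.0512 to 0.105). ADM was lost without TFEB KO replicate 1 or 2 or TFE3 KO replicate 2 (0.116 to 0.183), and PDK1 without TFE3 KO replicate 1 (0.0623).

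Among the 55 other genes of the hypoxia lists, 3 were higher and 15 lower in TFE3 KO than in TFEB KO (median -0.10, against 0.00 over all genes), or 5.45% and 27.3% against 14.3% and 15.6% of all genes. They included the secreted glycoprotein STC1 (-3.11 ± 0.30), P4HA2 (-1.21 ± 0.18), DDIT4 (-1.19 ± 0.11) and ANKRD37 (-1.07 ± 0.21). STC1 averaged 19.8 ± 2.46 in TFEB KO, 5.55 ± 2.06 in WT and 1.52 ± 0.855 in TFE3 KO (SD, n = 3). Against WT 4 of the 55 were higher and 5 lower in TFE3 KO, 11 and 1 in TFEB KO, and 5 and 5 in DKO. The rises in TFEB KO were 20.0% of the 55, against 7.46% of all genes. The integrated stress response list differed between some genotypes: 11 of 16 were lower and 1 higher in TFE3 KO than in TFEB KO (median -0.66). Against WT 11 were lower and 1 higher in TFE3 KO, 2 and 1 in TFEB KO, and 8 and 0 in DKO. Over all genes the lower shares against WT were 5.84%, 7.18% and 7.49%, and the higher shares 3.57%, 7.46% and 5.64%. Its summed value was 1205 to 1247 in TFE3 KO, 1443 to 1610 in TFEB KO, 1152 to 1171 in DKO and 1632 to 1665 in WT, and its part in these results was not tested.

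**Figure D5:**
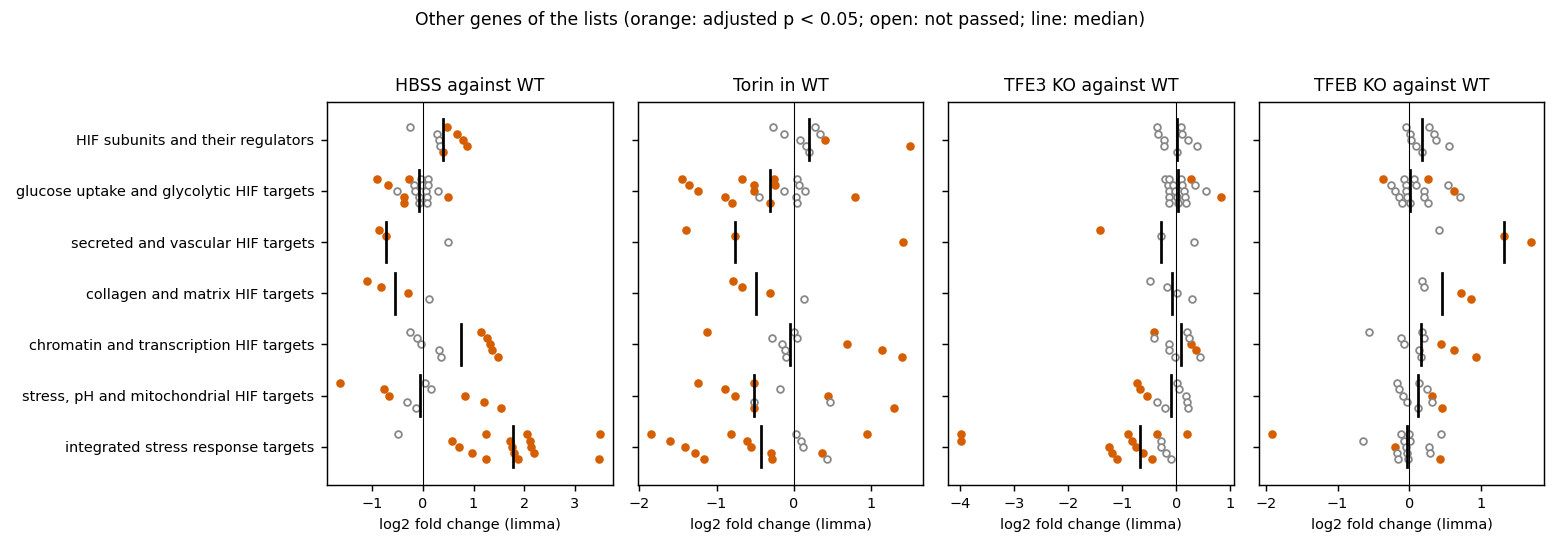
Log2 fold changes from limma (horizontal axis) of the genes other than the 9 members on 6 hypoxia lists and on the integrated stress response list (rows) in 4 contrasts (panels); orange points passed at an adjusted p of 0.05, open points did not, and lines are medians. The stress response list has its median at 1.78 in HBSS and -0.67 in TFE3 KO, and the glycolytic list lies mostly below 0 with Torin (median -0.32).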

How the data were processed

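The authors prepared QuantSeq Forward libraries, trimmed the reads with cutadapt 2.10, aligned them to hg38 with STAR 2.7.8a and deposited 1 table of normalised signal per gene, normalised with edgeR, which their methods also name for CPM. The columns used sum to 899534 to 1093230, near the CPM scale. The counter, the size factors and any gene filter are not given in the sources used here. Every deposited value was a whole multiple of 1 read's worth in its library (100% within 0.05 reads), and these reads served for edgeR 4.0.16 and DESeq2 1.42.0 as alternatives. The duplicated column was left out, since it carried 2 labels. The test was limma 3.58.1 on log2(value + 1) over 25 libraries, with trend and robust moderation, on 13052 genes (3 or more libraries at 1 or above), and Benjamini-Hochberg adjustment. All 9 members were tested. Depth bounds counting error only. Genes could be named by rule. These were the members everywhere, and on each list at most 4 per direction that passed at 2-fold with a mean of at least 5. Not every list gene that met the rule is named. Members and lists were chosen with earlier results of these data known. Groups come from the labels. Replicate numbers did not pair samples: same-numbered libraries' deviations correlated at -0.19 to 0.14. Scripts were tested on simulated data.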

Additional observations from a re-analysis of the deposited data

How the results depend on the processing

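The members called were counted again under other pseudocounts, filters, scalings, tools, sample sets and labels of the duplicated column (117 counts, of which 114 stayed within 1.5 times) and without each library in turn (89 counts, 85 within 1.5 times). With edgeR and with DESeq2, 1 member instead of 0 differed in the Torin response of TFEB KO, and with the duplicated column as WT Torin 4 instead of 7 differed between HBSS and Torin. Without 1 library each, the range was 0 to 1 for the Torin response of TFEB KO and 2 to 4 for DKO against WT. VEGFA turned from -0.73 to 0.051 in Torin-treated WT cells with the duplicated column as WT Torin or under both labels. The duplicated column summed to 1141420, against 1088560 and 1093230 in the HBSS libraries used and 985447 and 982925 in the WT Torin libraries used. Which treatment it belongs to, and the cause of the turn, was not tested. Of 1854 values of single members, 1789 kept their direction and call or passed in neither fit, 46 no longer passed, 17 newly passed and 2 reversed; among those passing in neither, 70 changed sign. Over all genes, counts moved most in the interactions and in HBSS against Torin (2694 with the duplicated column as WT Torin, 3549 under both labels), and without TFEB KO replicate 1 TFEB KO against WT had 1266. The replicate block gave the same member counts in all 13 comparisons and changed 0 member calls (7 in HBSS against WT, 6 for Torin in WT). Depth limits NDRG1 in TFE3 KO most, at 12 to 13 reads.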
